A study of Mus musculus with 10 samples.

Results

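The OAS genes encode the 2'-5'-oligoadenylate synthetases and their relatives. They were taken as the rows of the deposited table whose symbol was Oas1a, Oas1b, Oas1c, Oas1g, Oas2, Oas3, Oasl1 or Oasl2, and all 8 were present among its 20813 genes. The samples were 10 leukemic spleens of C57BL/6 mice, sub-lethally irradiated recipients of T-cell acute lymphoblastic leukemia (T-ALL, a cancer of immature T cells) given into the vein; per the protocol the leukemias were conditional knockouts of Sirt1, a protein deacetylase. Recipients had an intraperitoneal dose of tamoxifen, 3 mg in corn oil for each animal, or corn oil alone, and the genotype labels are Sirt1 deleted (5 samples) and Control (5 samples). By that protocol the controls carry the conditional allele too, although the series title calls one group wild-type; the recombinase and its promoter are not named in the labels, and drug and genotype coincide in every sample, so their effects cannot be told apart. Replicate numbers are those of the sample titles, 2 to 6 in controls and 7, 8, 10, 11 and 12 in the labelled Sirt1-deleted group. An irradiated host keeps cells of its own in the spleen, and whole spleen cell suspensions were used after red cell lysis. The labels do not say whether the samples came from separate leukemias, so p-values measure the spread between these 10 samples.

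Oligoadenylate synthetases are cytosolic enzymes that bind double-stranded RNA and then join ATP into short chains called 2-5A. The chains act as a second messenger that leads to the cutting of RNA and so limits protein synthesis and viral growth. Transcription of these genes is a classical response to interferon, through the factor ISGF3, which holds STAT2 and IRF9. The OASL proteins carry ubiquitin-like domains and act through other routes; mouse Oasl1 protein restrains translation of the interferon regulator IRF7, while mouse Oasl2 protein has kept synthetase activity.

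The tamoxifen-treated samples are called labelled Sirt1-deleted because the gene-level value of Sirt1 did not separate the groups. Sirt1 ranged from 1715 to 2097 normalized counts in the labelled Sirt1-deleted samples and from 1735 to 1909 in controls (limma adjusted p = 0.568). This value counts every exon, and the labels do not say which are deleted, so it checks the labels only in part. Normalized counts summed to between 33660245 and 34471964 per sample. Markers of the T lineage were abundant in every sample: the 16 listed genes summed to between 187835 and 226442 normalized counts. Of the 15276 genes with a mean of at least 10, 36.1% differed between the groups (2562 higher and 2956 lower in the labelled Sirt1-deleted samples; limma on log2(value + 1), Benjamini-Hochberg adjusted p under 0.05). After upper-quartile rescaling the split was 3162 higher and 2272 lower. The median difference over tested genes stayed between -0.04 and 0.06 on the log2 scale in all alternatives.

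All 8 OAS genes had higher normalized counts in the labelled Sirt1-deleted samples and passed the test, where 16.8% of all tested genes were called higher. The size of the rise was uneven: Oas2 rose 8.63-fold in its group means, whereas Oas1c, the least changed, rose 1.24-fold. For 7 of the 8, every labelled Sirt1-deleted sample lay above every control, which held for 11.1% of tested genes. The median log2 difference of the 8 was 1.59, against -0.00014 for all tested genes, and 7 of the 8 rose by at least 1, as did 3.95% of tested genes. The remaining gene, Oas1c, was also the only one of the 8 whose groups overlapped. In bulk RNA from a spleen, a change in the number of cells that express a gene and a change in RNA per cell cannot be told apart.

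**Figure D1:**
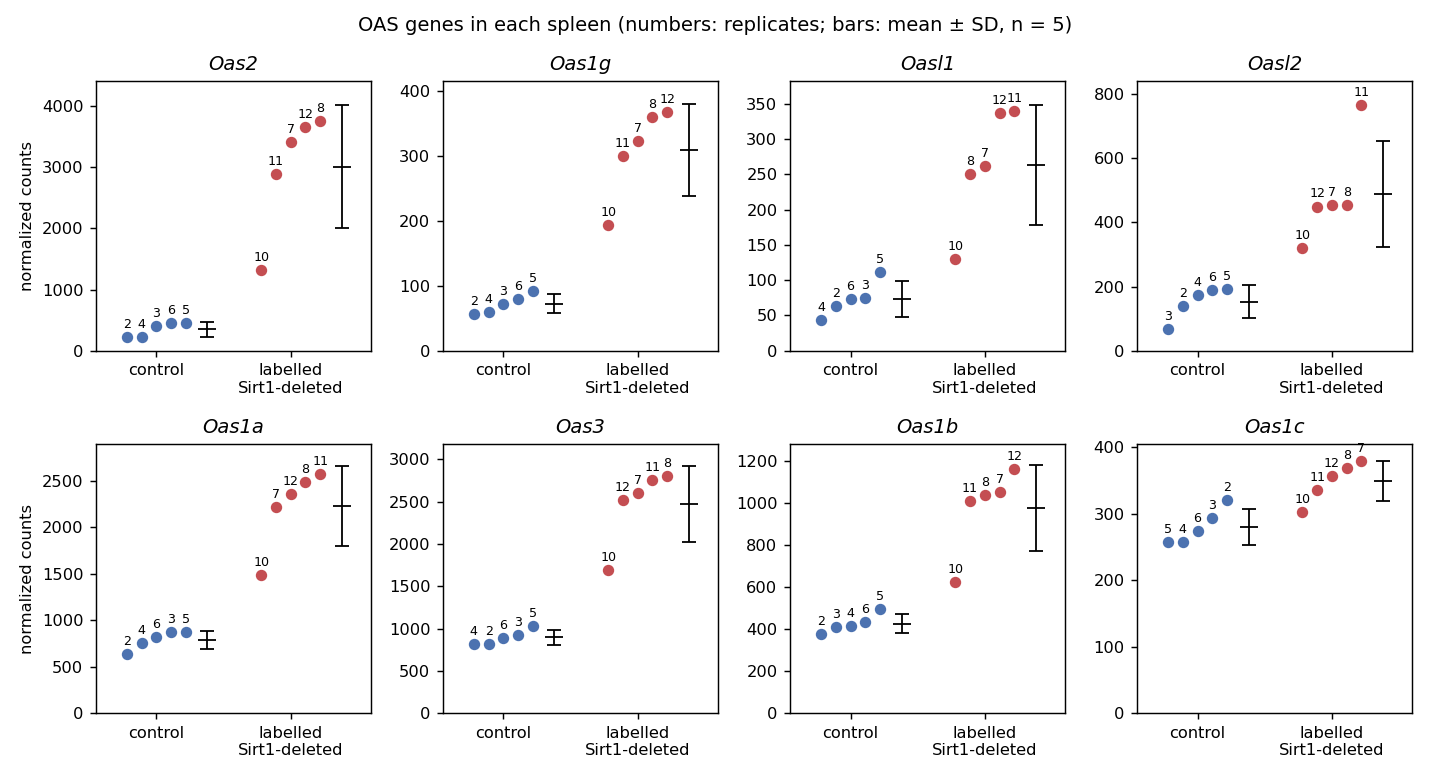
Normalized counts of the 8 OAS genes (vertical axes, starting at 0) in 5 control and 5 labelled Sirt1-deleted spleens, with replicate numbers beside the points and the mean ± SD at the right of each group. Labelled Sirt1-deleted replicate 10 has the lowest value of its group in all 8 panels, and the groups overlap only for Oas1c.

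The genes fall at 2 places on mouse chromosome 5 (GRCm38, GENCODE M21). Oasl2 (chr5:114896936-114912234, plus strand) and Oasl1 (chr5:114923240-114937915, plus strand) form a pair. The main cluster runs from Oas2 (chr5:120730333-120749853) through Oas3 (chr5:120753098-120777661), Oas1c (chr5:120800194-120812514), Oas1b (chr5:120812635-120824163, plus strand) and Oas1g (chr5:120876142-120887613) to Oas1a (chr5:120896256-120907521), and all but Oas1b of these are on the minus strand. Oas1b is annotated as a polymorphic pseudogene in GENCODE and as a transcribed pseudogene in RefSeq. This gene is known as the flavivirus resistance locus, and laboratory strains such as C57BL/6 carry a truncated allele of it.

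Promoter windows of 300 bases, 250 before and 50 after the annotated start, are shown for the 4 OAS genes whose window held the core of the interferon-stimulated response element, the sequence that ISGF3 and interferon regulatory factors bind. The sequences are from the RefSeq table of GRCm38.p6, which matched 6 of the 8 members (not Oas1b and Oas2). Capitals mark GAAANNGAAA on either strand.
Oas1a: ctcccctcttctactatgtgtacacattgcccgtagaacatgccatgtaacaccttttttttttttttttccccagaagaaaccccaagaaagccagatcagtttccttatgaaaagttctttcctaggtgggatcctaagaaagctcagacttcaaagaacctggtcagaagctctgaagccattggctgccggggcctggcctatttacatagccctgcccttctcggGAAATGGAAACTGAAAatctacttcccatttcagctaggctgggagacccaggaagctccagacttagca
Oas1g: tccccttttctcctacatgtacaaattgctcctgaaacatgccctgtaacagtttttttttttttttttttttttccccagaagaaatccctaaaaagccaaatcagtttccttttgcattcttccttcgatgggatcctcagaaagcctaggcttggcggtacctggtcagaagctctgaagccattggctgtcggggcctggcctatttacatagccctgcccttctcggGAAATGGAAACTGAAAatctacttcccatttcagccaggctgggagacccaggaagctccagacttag
Oas3: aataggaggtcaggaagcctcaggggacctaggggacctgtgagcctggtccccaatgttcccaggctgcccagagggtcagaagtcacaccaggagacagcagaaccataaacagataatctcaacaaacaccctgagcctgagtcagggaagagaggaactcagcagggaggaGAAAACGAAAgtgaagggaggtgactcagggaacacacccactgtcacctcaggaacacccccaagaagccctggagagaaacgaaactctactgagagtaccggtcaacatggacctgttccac
Oas1c: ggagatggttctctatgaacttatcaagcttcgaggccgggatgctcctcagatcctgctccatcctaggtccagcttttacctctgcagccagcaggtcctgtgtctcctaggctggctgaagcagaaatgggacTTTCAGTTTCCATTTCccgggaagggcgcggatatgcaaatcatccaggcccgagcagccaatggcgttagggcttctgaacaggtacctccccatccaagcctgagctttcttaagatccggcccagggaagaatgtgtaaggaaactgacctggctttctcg

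These windows lie at chr5:120907476-120907775 (Oas1a), chr5:120887564-120887863 (Oas1g), chr5:120777610-120777909 (Oas3) and chr5:120812465-120812764 (Oas1c), all read along the minus strand. Oas1a and Oas1g each held 2 overlapping matches, GAAATGGAAA and GAAACTGAAA, ending 5 and 3 bases before the start, and the windows were identical at 85.3% of aligned positions, so they are not independent cases. Oas3 held GAAAACGAAA between 75 and 66 bases before its start. Oas1c held 2 overlapping matches on the opposite strand, TTTCAGTTTC and TTTCCATTTC, between 114 and 99 bases before its start. In the windows of Oasl1 and Oasl2 these letters were not found. Over all 32851 windows of the table, 3.44% held a match. The core of the gamma-activated sequence, TTCNNNGAA, which reads the same on both strands and is known from genes that respond to interferon gamma, was in 1 of the 6 windows, that of Oas1a (98 to 90 bases before the start), and in 8.30% of all windows. The window of Oas1c, the gene with the smallest rise, held the response element core as did those of Oas1a, Oas1g and Oas3. That window also takes in the start of Oas1b (chr5:120812635), which is read the other way. The matches lie between the starts of Oas1c and Oas1b. Along the strand of Oas1b they read as the same letters as those of Oas1a and Oas1g. They cannot be assigned to Oas1c rather than Oas1b, and their use by either gene was not tested.

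The Oas1 genes encode the small synthetases with a single catalytic unit. Oas1a, an active synthetase, measured 639, 871, 759, 873 and 820 normalized counts in control replicates 2 to 6. In labelled Sirt1-deleted replicates 7, 8, 10, 11 and 12 it measured 2224, 2489, 1492, 2577 and 2361. All 5 samples exceeded the highest control, with replicate 10 nearest to it. The mean went up from 793 ± 97.7 to 2229 ± 433 (SD over 5 samples in either group), a log2 difference of 1.47 (SE 0.14, limma adjusted p = 7.48e-05).

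Oas1g, the closest paralog of Oas1a and also an active synthetase, measured 56.5, 72.6, 60.0, 91.8 and 79.96 normalized counts in control replicates 2 to 6. In labelled Sirt1-deleted replicates 7, 8, 10, 11 and 12 it measured 324, 360, 193, 301 and 368. The lowest labelled Sirt1-deleted sample was again replicate 10, at more than the highest control. The log2 difference was 2.07 (SE 0.19, limma adjusted p = 7.17e-05), the second largest estimate of the family. Of the distinct 31-base words in the transcripts of Oas1a, 68.8% also occur in transcripts of other genes, nearly all of them in Oas1g, and 55.1% of those of Oas1g are shared, mostly with Oas1a. The division of reads between this pair is therefore uncertain. Their sum, which does not depend on that division, went from 864.8 ± 109.9 to 2538 ± 494 normalized counts (SD over 5 samples in either group), a ratio of 2.93.

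Oas1b, the annotated pseudogene, measured 377, 409, 413, 496 and 436 normalized counts in controls. It measured 1049, 1034, 625, 1007 and 1159 in labelled Sirt1-deleted replicates 7, 8, 10, 11 and 12. The groups did not overlap, and replicate 10 stood between the controls and the other 4 samples. On the log2 scale Oas1b rose by 1.17 (SE 0.14, limma adjusted p = 3.44e-04). Of its 31-base words, 6.70% occur in other genes.

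Oas1c encodes a member of the group that is known to lack synthetase activity. Its normalized counts were 321, 294, 257, 257 and 274 in controls and 380, 368, 303, 336 and 357 in labelled Sirt1-deleted replicates 7, 8, 10, 11 and 12. Replicate 10 lay below control replicate 2, so the groups overlapped. The log2 difference was 0.31 (SE 0.10, limma adjusted p = 0.0224). This call did not survive the omission of single samples: limma adjusted p was 0.0525 without control replicate 4, 0.0565 without control replicate 5, 0.0583 without labelled Sirt1-deleted replicate 7 and 0.0502 without labelled Sirt1-deleted replicate 8, with log2 differences of 0.28, 0.28, 0.28 and 0.29. Of its 31-base words, 25.2% are shared, most with Oas1e and Oas1d, and an antisense gene overlaps its locus.

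Among the other Oas1 paralogs, Oas1e and Oas1h had rows in the table, and both stayed under the low-value filter, with no sample above 11.04 normalized counts. Oas1d and Oas1f were not analysed here.

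Oas2 encodes the middle-sized synthetase with a pair of catalytic-type units, and it showed the largest rise. It measured 217, 397, 226, 458 and 448 normalized counts in control replicates 2 to 6. In labelled Sirt1-deleted replicates 7, 8, 10, 11 and 12 it measured 3420, 3763, 1326, 2888 and 3659. The lowest labelled Sirt1-deleted sample, replicate 10, was still above every control, although it reached only 37.5% of the median of the other 4. The log2 difference was 3.09 (SE 0.30, 95% interval 2.45 to 3.73, limma adjusted p = 8.47e-05), and without replicate 10 it was 3.36. Of all 15276 tested genes, Oas2 had the 16th highest log2 difference. None of its 31-base words occurs in another gene, although a gene annotated on the opposite strand overlaps 1273 bases of its locus.

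Oas3 encodes the largest synthetase, which senses long double-stranded RNA. It measured 824, 927, 817, 1029 and 892 normalized counts in controls and 2597, 2802, 1694, 2760 and 2522 in labelled Sirt1-deleted replicates 7, 8, 10, 11 and 12. The groups did not overlap. Oas3 rose by 1.44 on the log2 scale (SE 0.12, limma adjusted p = 3.88e-05), close to that of Oas1a. Only 2.27% of its 31-base words are shared with other genes.

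The synthetase-like pair also rose. Oasl1 measured 63.3, 74.7, 43.2, 112 and 73.4 normalized counts in controls and 262, 250, 130, 339 and 336 in labelled Sirt1-deleted replicates 7, 8, 10, 11 and 12. The gap between the groups was narrow, from 112 in control replicate 5 to 130 in labelled Sirt1-deleted replicate 10. Its rise on the log2 scale was 1.82 (SE 0.28, limma adjusted p = 8.97e-04). An antisense gene overlaps 38 bases of the Oasl1 locus.

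Oasl2 measured 139, 67.9, 172, 192 and 190 normalized counts in control replicates 2 to 6 and 454, 454, 321, 766 and 449 in labelled Sirt1-deleted replicates 7, 8, 10, 11 and 12. Control replicate 3 was low and labelled Sirt1-deleted replicate 11 high within their groups, which did not overlap. Oasl2 rose by 1.71 on the log2 scale (SE 0.28, limma adjusted p = 0.00124), and it ranged from 1.44 to 1.85 when single samples were left out.

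Whether the members rose by different amounts was tested on the log2 ratio of each pair within a sample (exact two-sided permutation of the 10 samples, Benjamini-Hochberg over 28 pairs; the smallest p possible is 0.00794). The ratio differed between the groups for 19 of the 28 pairs. Oas2 rose more than each of the other 7 genes, and Oas1c rose less than each of the other 7. Between these, Oas1b rose less than Oas1a (log2 ratio change 0.31, exact permutation p = 0.0238, adjusted p = 0.0351). Oas1g rose more than Oas1a by 0.60 and more than Oas3 by 0.63 (exact permutation p = 0.00794 and adjusted p = 0.0159 for each), and both comparisons rest on the uncertain division of reads between Oas1a and Oas1g. The rise of Oas1g was not separated from that of Oasl1 (0.25, exact permutation p = 0.222, adjusted p = 0.271). Nor was it separated from that of Oasl2 (0.36, exact permutation p = 0.302, adjusted p = 0.352). Oas1a and Oas3 changed by amounts that differed by 0.03 (exact permutation p = 0.659, adjusted p = 0.683). Oasl1 and Oasl2 differed from one another by 0.11 in their change (exact permutation p = 0.802, adjusted p = 0.802), with a wide scatter of their ratio among controls (SD 0.78). The 9 pairs that missed the threshold are not thereby shown to change alike.

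**Figure D2:**
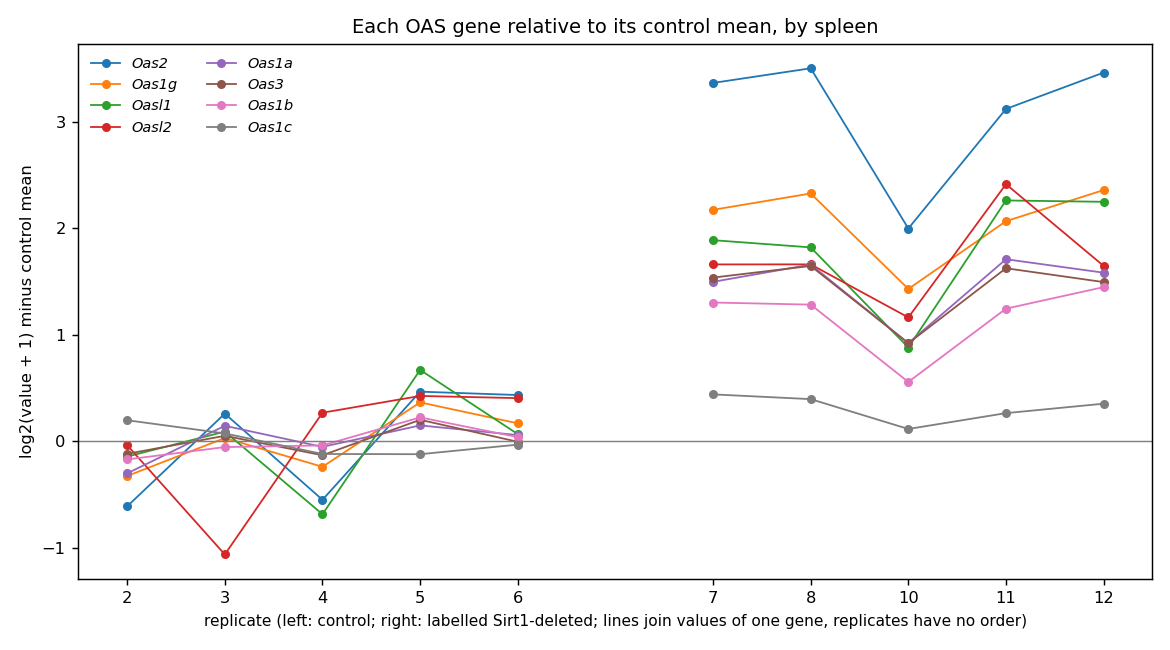
Log2(normalized count + 1) of each OAS gene minus its mean over controls (vertical axis) in each spleen (horizontal axis, replicate numbers; control left, labelled Sirt1-deleted right). The gene with the largest rise is Oas2 in all 5 labelled Sirt1-deleted spleens, and averaged over the 8 genes the rise is 1.00 in replicate 10 and 1.73 to 1.84 in the other 4.

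For 8 of the 8 genes the lowest labelled Sirt1-deleted value was that of replicate 10. Averaged over the genes it stood 1.00 above the control mean on the log2 scale, whereas the other 4 stood 1.73 to 1.84 above it. The shortfall was smallest for Oas1c, at 83.5% of the median of the other 4 samples, and largest for Oas2. Among controls, replicate 5 was the highest for 7 of the 8 genes and averaged 0.30 above the control mean, and replicates 2 and 4 averaged 0.19 below it. Without labelled Sirt1-deleted replicate 10, all 8 genes still passed the test.

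To compare the genes with one another, normalized counts were divided by the length of the longest GENCODE transcript. In controls the order per kilobase was Oas1a (420 ± 51.8), Oas1b (232 ± 24.1), Oas3 (190 ± 18.4), Oas1c (122 ± 11.9), Oas2 (88.1 ± 30.0), Oasl2 (48.7 ± 16.5), Oas1g (36.5 ± 7.33) and Oasl1 (33.6 ± 11.5) normalized counts per kilobase (SD, n = 5). Neighbours in this order overlapped in their ranges except at 2 steps, between Oas1a and Oas1b and between Oas3 and Oas1c. These ranges do not compare genes within a sample. Within samples, Oas1b lay above Oas3 in every control, while in control replicate 5 Oas2 (116) lay above Oas1c (112). By group means, Oas1a was again first in the labelled Sirt1-deleted samples (1182 ± 229). Oas2 had moved from the fifth place to the second (760 ± 253), followed by Oas1b (531 ± 111) and Oas3 (524 ± 95.6). The other 4 genes lay at 121 to 156 per kilobase, and the only step without overlap was between Oas3 and these. Within single samples, Oas1a lay above Oas2 in every labelled Sirt1-deleted replicate. In replicate 10, however, Oas2 (335) lay below Oas1b (340) and Oas3 (359), so its second place did not hold there. As a share of the summed length-scaled level of the 8 genes, Oas2 went from 7.52% to 21.2% and Oas1c from 10.5% to 4.25%, while Oas1a was 35.9% and 33.0%.

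**Figure D3:**
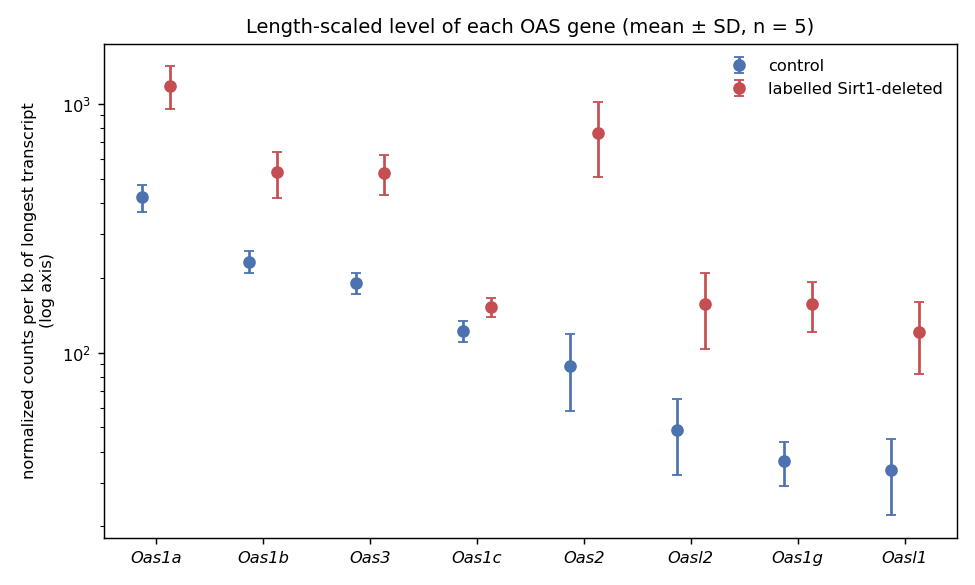
Normalized counts per kilobase of longest transcript (vertical log axis, mean ± SD, n = 5) for each OAS gene in control and labelled Sirt1-deleted spleens, ordered by the control mean. By group mean Oas2 goes from the fifth to the second place, and Oas1c changes least.

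The listed genes of 2-5A turnover did not rise with the synthetases. Pde12 encodes a phosphodiesterase that degrades 2-5A. Its mean was 1040 ± 54.7 normalized counts in controls and 845 ± 89.2 in labelled Sirt1-deleted samples (SD over 5 samples in either group). The log2 difference of -0.30 passed the test (SE 0.08, limma adjusted p = 0.00914), although replicate 10 of the labelled Sirt1-deleted samples (974) lay above control replicate 3 (966). Of the 4 listed genes, 2 were called lower and none higher, where 19.4% of tested genes were called lower. The other was Enpp1, a nucleotide phosphodiesterase, with a log2 difference of -0.32 (limma adjusted p = 0.0290). Its call was lost without control replicates 2, 3 or 5 and without labelled Sirt1-deleted replicates 7, 11 or 12, each left out alone (limma adjusted p between 0.0510 and 0.0764, log2 differences from -0.31 to -0.27). Abce1, a ribosome recycling factor, differed by -0.10 (limma adjusted p = 0.172) and Akap7, an anchoring protein with 2',5'-phosphodiesterase activity, by -0.20 (limma adjusted p = 0.535). Without labelled Sirt1-deleted replicate 10, Abce1 passed as lower (log2 difference -0.15, limma adjusted p = 0.0401).

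**Figure D4:**
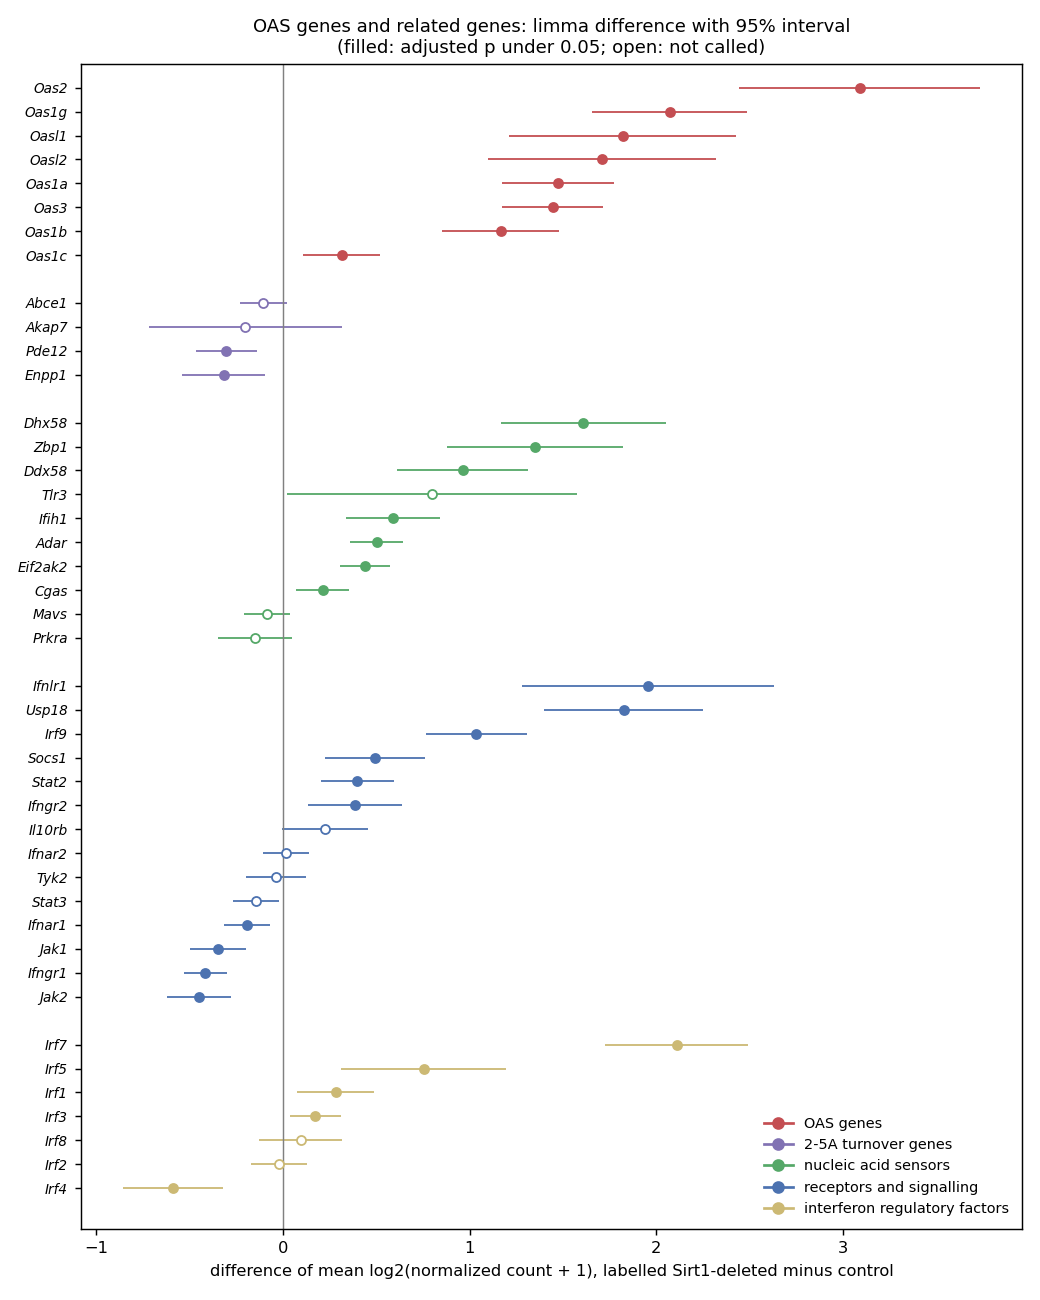
Difference of mean log2(normalized count + 1) between labelled Sirt1-deleted and control spleens (horizontal axis, with the 95% interval from limma) for the OAS genes and 4 related lists. Filled points have an adjusted p under 0.05; all 8 OAS genes lie to the right of 0, and Pde12 and Enpp1 lie to the left.

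Of the 10 listed sensors of nucleic acid and their partners, 7 were called higher and none lower, against 16.8% of all tested genes called higher and 19.4% lower. Dhx58, the helicase LGP2 that modulates RNA sensing, rose by 1.61 on the log2 scale (limma adjusted p = 3.88e-04). Zbp1, a sensor of left-handed nucleic acid, rose by 1.35 (limma adjusted p = 0.00109), and Ddx58, the sensor RIG-I, by 0.96 (limma adjusted p = 0.00144). Rises were smaller for Ifih1 (the sensor MDA5, 0.59), Adar (an RNA-editing deaminase, 0.50) and Eif2ak2 (the kinase PKR, which also binds double-stranded RNA, 0.44). Cgas, the DNA sensor that shares the OAS fold, rose by 0.21 (limma adjusted p = 0.0237). Its call was lost without control replicate 4 (0.17, limma adjusted p = 0.0569) and without labelled Sirt1-deleted replicates 7 (0.20, limma adjusted p = 0.0571) or 8 (0.18, limma adjusted p = 0.0595). Mavs (an adaptor), Prkra (an activator of PKR) and Tlr3 (an endosomal receptor) were not called, although Tlr3 passed as higher without labelled Sirt1-deleted replicate 10 (log2 difference 1.04, limma adjusted p = 0.0251).

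Of the 21 listed interferon ligand genes, 3 had rows in the table (Ifng, Ifnab and Ifnz) and the other 18 were not analysed here. Ifng measured 1.65 to 9.45 normalized counts in controls and 5.44 to 10.1 in labelled Sirt1-deleted samples, and Ifnab at most 3.18 in any sample; both were under the filter. Ifnz passed it, at 12.9 ± 5.76 in controls and 9.57 ± 6.89 in labelled Sirt1-deleted samples (SD over 5 samples in either group; limma adjusted p = 0.374).

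The receptors and kinases of interferon signalling did not move together. Of the 14 receptor and signalling genes, 6 were called higher and 4 lower, where 16.8% and 19.4% of all tested genes were. The ISGF3 genes Irf9 and Stat2 rose by 1.04 (limma adjusted p = 2.96e-04) and by 0.40 (limma adjusted p = 0.00573). The feedback inhibitors Usp18 and Socs1 rose by 1.83 and 0.49. Ifnlr1, the receptor of type III interferon, went from 12.6 ± 5.43 to 51.99 ± 22.2 normalized counts (SD over 5 samples in either group), a rise of 1.96 on the log2 scale (limma adjusted p = 0.00101). The kinase genes Jak1 and Jak2 fell, with log2 differences of -0.35 and -0.45, and Ifngr1, a receptor chain for interferon gamma, fell with -0.42 (limma adjusted p = 3.90e-04). Ifngr2, the other chain, was called higher (0.39), but not without labelled Sirt1-deleted replicates 7 (0.33, limma adjusted p = 0.0559) or 8 (0.31, limma adjusted p = 0.0502). Ifnar1, a chain of the type I receptor, was called lower (-0.19), but not without control replicate 2 (-0.18, limma adjusted p = 0.0522) nor after upper-quartile rescaling (-0.13, limma adjusted p = 0.0621). Il10rb passed as higher only without labelled Sirt1-deleted replicate 10 (0.30, limma adjusted p = 0.0224) or with sample weights (0.28, limma adjusted p = 0.0365), and Stat3 passed as lower only without control replicate 6 (-0.19, limma adjusted p = 0.0183).

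Of the 7 tested interferon regulatory factor genes, 4 were called higher and 1 lower, where 16.8% and 19.4% of all tested genes were. Irf7, the regulator whose translation Oasl1 protein restrains, went from 409.8 ± 59.4 to 1813 ± 445 normalized counts (SD over 5 samples in either group), a rise of 2.11 on the log2 scale (SE 0.18, limma adjusted p = 3.52e-05). For Irf7 also, replicate 10 had the lowest labelled Sirt1-deleted value, 1043. Irf5, a factor active in myeloid cells, rose by 0.75 (limma adjusted p = 0.0132), and Irf4 fell by 0.59 (limma adjusted p = 0.00399). Irf1 and Irf3 were called higher, at 0.28 and 0.17. These 2 calls were lost in 6 and 7 of the 10 fits that left out a sample: both without control replicates 2, 4 or 6 and labelled Sirt1-deleted replicates 7, 8 or 12, and that of Irf3 also without control replicate 5, with log2 differences of 0.23 to 0.29 for Irf1 and 0.14 to 0.18 for Irf3 in those fits.

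The flanks of the cluster were compared with the cluster itself. Of the 12 nearest protein-coding genes of the table, 3 on each side of the main cluster and of the Oasl pair, 9 passed the filter, 1 was called higher and 2 lower, where 16.8% and 19.4% of all tested genes were; the flanks were thus near the background. Dtx1, a Notch target gene 18.4 kb from the Oas2 end of the cluster, rose by 0.30 (limma adjusted p = 8.38e-04), and Rasal1, the next gene outward, differed by 0.00079 (limma adjusted p = 0.996). On the Oas1a side Rph3a was under the filter, and Ptpn11, 209 kb beyond the end of the annotated span of Oas genes (position 120921652, past Oas1a), had a log2 difference of -0.29 (limma adjusted p = 0.0121). Next to Oasl1, 2210016L21Rik at 4.24 kb differed by 0.01 (limma adjusted p = 0.948). The rise of Dtx1 was about that of Oas1c, 0.31, and the other 7 OAS genes rose by 1.17 or more.

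**Figure D5:**
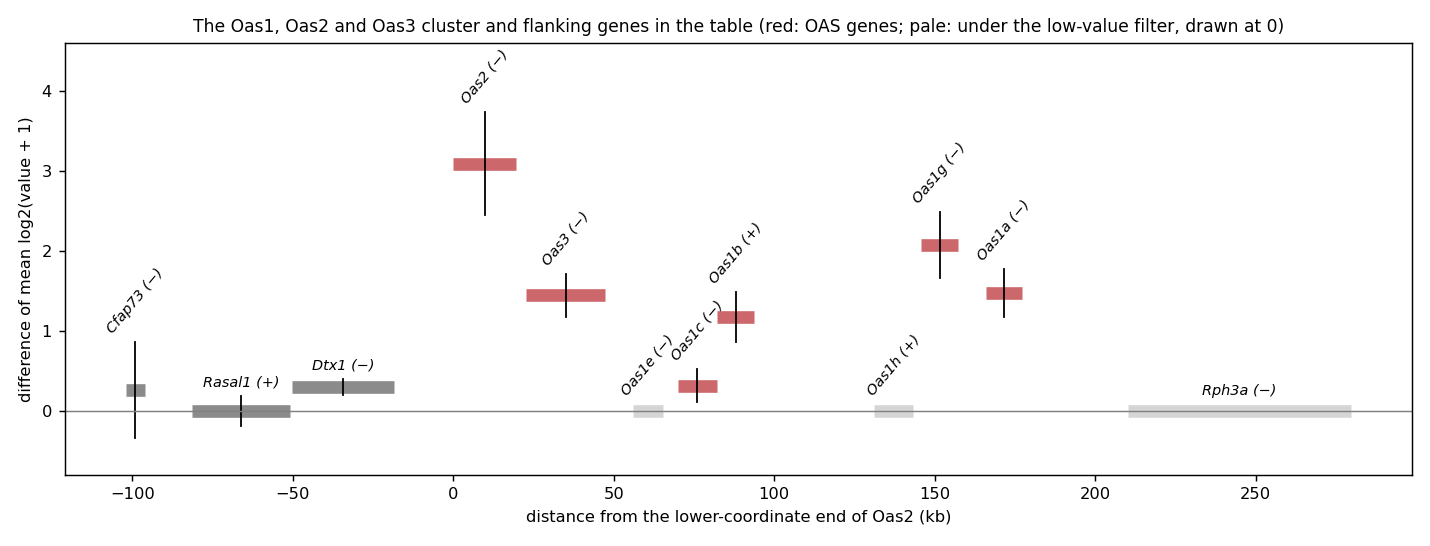
Difference of mean log2(value + 1) (vertical axis, bars at each gene's extent, vertical lines the 95% interval from limma) along the Oas1, Oas2 and Oas3 cluster, by distance from the lower-coordinate end of Oas2 in kb. Oas genes in red differ by 0.31 to 3.09, and flanking Dtx1 differs by 0.30; Oas1e, Oas1h and Rph3a are under the low-value filter and drawn pale at 0.

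The genes whose profile was most like that of the OAS genes were found by the root-mean-square difference, over the 10 samples, between each gene's log2 value relative to its control mean and the average of the 8 members. Among 10744 other genes with a mean of at least 100, the closest were Xaf1 (0.0854), Ifi27 (0.108), Samd9l (0.120), Slfn1 (0.170), Dhx58 (0.182), Gbp6 (0.199), Cd80 (0.202) and Hmcn2 (0.215, all in log2 units). For comparison, the members themselves lay between 0.160 (Oas1a) and 1.07 (Oas2) from their own average. Xaf1, an apoptosis regulator that interferon induces, went from 394 ± 39.3 to 1245 ± 278 normalized counts (SD over 5 samples in either group), and Ifi27 from 1507 ± 215 to 4687 ± 833. Apart from Gbp6, which is also on chromosome 5, these genes lie on other chromosomes. The list was ordered on the values of these 10 samples, and it is a description.

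Neutrophil and macrophage markers were higher in the same samples as the OAS genes. As background, 16.8% of all tested genes were called higher and 19.4% lower. Of 14 neutrophil markers, 13 were called higher, and their summed level was 8474 to 11778 normalized counts in controls and 27194 to 93521 in labelled Sirt1-deleted samples. Of 14 macrophage and monocyte markers, 12 were called higher, with sums of 3359 to 3845 and 6998 to 12880. Labelled Sirt1-deleted replicate 10 had the lowest sum of its group for both lists, as it had the lowest value of every OAS gene. That was not particular to these lists. Replicate 10 was also lowest for the plasmacytoid dendritic (7639), dendritic (234) and natural killer (12609.5) sums. It was not lowest for the B cell, erythroid, stromal and endothelial or T lineage sums. Some single macrophage markers, such as Csf1r and C1qa, were lowest in replicate 11. Plasmacytoid dendritic markers summed to 5438 to 7183 in controls and 7639 to 10476 in labelled Sirt1-deleted samples, with 2 of 5 called higher, Siglech and Bst2, the latter itself an interferon-induced gene. Bst2 alone measured 1701 to 2352 in controls and 3839 to 5066 in labelled Sirt1-deleted samples. The other abundant markers of this list, Tcf4, Ccr9 and Ly6d, were not called (log2 differences 0.03, 0.09 and -0.01). Of the 5 tested dendritic markers 1 was called higher, and none of the 7 B cell, 4 tested natural killer or 8 erythroid markers was called. Of the 6 tested stromal and endothelial markers none was called higher and 2 lower, with sums of 5668 to 6595 in controls and 4904 to 5405 in labelled Sirt1-deleted samples. Of 16 T lineage markers 2 were called higher and 5 lower. Their sum was 215170 to 226442 in controls and lower in every labelled Sirt1-deleted sample (187835 to 213856), with replicate 10 the highest of these. This fall lay in Tcf7, the most abundant of the 16. Without Tcf7 the sums of the remaining genes overlapped between the groups, and replicate 11 stood above replicate 10. Tcf7 measured 74745.5 to 80366.5 normalized counts in controls and 49375.9 to 64326.3 in labelled Sirt1-deleted samples, also highest in replicate 10. Cd3d was called higher, and Cd3e, Cd3g, Lck and Zap70 were not called. No marker of any list was at 0 in all samples. The part of these cells in the OAS values was not tested.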

How the data were processed

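RNA was sequenced from 10 leukemic spleens, from strand-specific libraries after red cell lysis, per the labels' protocols. The deposited values are a signal of normalized counts per gene, which the authors scaled with DESeq as the file's name says, and they are not raw counts. Kallisto 0.44.0, DESeq and mm10 (GRCm38) are named in the submitters' processing notes without their roles; the annotation and any strand setting are not given in the sources used here. Low values were read for whole reads: 71.5% to 74.4% per sample lay within 0.1 of a multiple of 1 read, so reads were not recovered and depth is approximate (31500000 to 38000000 reads). No columns lay outside the 10 samples.

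Log2(value + 1) was fitted for the 15276 genes with a mean of at least 10 (limma 3.58.1, R 4.3.3, group as the only term, intensity trend, Benjamini-Hochberg over all genes); limma was tested on simulated data. Single ratios had an exact permutation test. Lengths, positions and shared 31-base words came from GENCODE M21, whose build matches; whether the authors used that release is not known. The members, lists and alternatives were chosen with earlier results of these data known. Named were the 8 members, genes of 6 related lists, flanking genes and the 8 most alike genes; some listed items are not reported here. Alternatives were other pseudocounts, filters, scalings, limma options, a rank-sum test and the omission of each sample.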

Additional observations from a re-analysis of the deposited data

Results flagged for a closer look

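In each group of 5 samples, the distance of the most extreme value from the next one was set against the whole range, for the 8 OAS genes and the 36 tested genes of the related lists. The ratio passed the critical value of 0.71 in 12 of 88 sets, where chance flags 1 in 20 (4.4 sets); the sets share samples and are not independent. No explanation was tested.

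Labelled Sirt1-deleted replicate 10 was far below the rest of its group in 6 of them. It measured 625 normalized counts for Oas1b against 1007 to 1159, and 1694 for Oas3 against 2522 to 2802. Among related genes it measured 1830 for Eif2ak2 against 2060 to 2083, 377 for Dhx58 against 762 to 877, 1879 for Irf9 against 2638 to 2944, and 1043 for Irf7 against 1815 to 2098. In all 6 it was above every control.

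Among controls, replicate 2 stood high for Akap7 (247 against 115 to 142), Ifnar2 (1527 against 1461 to 1477), Ifngr2 (684 against 591 to 609) and Jak1 (9461 against 8336 to 8630). For Ifnlr1, control replicate 4 was high at 22.1 against 9.53 to 12.1, and labelled Sirt1-deleted replicate 8 at 90.2 against 36.4 to 51.2.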

How the results depend on the processing

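No paired analysis was possible because no replicate number occurs in both groups. Rescaling to totals without the 10 highest genes was chosen after seeing the data. Under the 11 alternatives that kept all samples and the 10 fits that left out 1 sample, Oas1a, Oas1b, Oas1g, Oas2, Oas3, Oasl1 and Oasl2 stayed higher and past the threshold. Oas1c kept its direction and size but lost its call with the exact rank-sum test (0.314, adjusted p = 0.0512) and when any of 4 samples was left out (range over all 10 such fits 0.282 to 0.363). So 7 or 8 OAS genes were called, and 15 to 19 of the pairs. With the exact rank-sum test 3659 of all tested genes were called in place of 5518, and 15 of the related genes (10 higher, 5 lower) in place of 24; at this size it calls only genes whose groups do not overlap. Of the related genes Pde12, Enpp1, Cgas, Ifngr2, Stat2, Socs1 and Irf5 missed the threshold with an adjusted p of 0.0512. The calls of Irf1 and Irf3 were also lost in limma without the trend, that of Irf3 with a minimum mean of 1 or none, that of Enpp1 after upper-quartile rescaling and that of Ifnar1 after quantile normalization. Signs turned only among related genes that were not called: Tyk2 (main -0.037) gave 0.0221 after upper-quartile rescaling, 0.0237 after quantile normalization, 0.0278 with sample weights and 0.0198 without labelled Sirt1-deleted replicate 10 (range with 1 sample left out -0.0813 to 0.0198). Irf2 (main -0.022) gave 0.0369, 0.0381 and, without that replicate, 0.0170 (range -0.0761 to 0.0170). Ifnar2 (main 0.015) gave -0.0192 and -0.00240 without labelled Sirt1-deleted replicates 7 and 8 (range -0.0192 to 0.0395). The cause was not tested. Depth could be estimated only roughly, so no counting intervals are given.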
